A study of Rattus norvegicus with 6 samples.

Results

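The genes described are 10 members of the TGF-beta and activin pathway, chosen by name: the ligand genes Tgfb1, Tgfb2, Tgfb3 and Inhba, the latency gene Ltbp1, the receptor genes Tgfbr1 and Tgfbr2, the signal transducer Smad3, the inhibitor Smad7 and the matrix gene Tgfbi. They are 10 of the 28615 genes shared by the time-course tables and 10 of the 25054 genes of the injected libraries. All 10 were found by symbol in every table, and each had at least 1 UMI (unique molecular identifier, a counted RNA molecule) in both sets of libraries.

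TGF-beta is made as an inactive complex, in which the cytokine stays wrapped in its own propeptide and is tethered to matrix by latent TGF-beta binding proteins such as the product of Ltbp1. Once released, it brings together a type II receptor (Tgfbr2) and a type I receptor (Tgfbr1), which phosphorylates Smad2 and Smad3, and Smad7 is induced as a feedback inhibitor of that receptor. Inhba encodes the subunit of activin A, which signals through other receptors to the same SMAD proteins, and Tgfbi encodes a secreted matrix protein named for its induction by TGF-beta. In the nervous system, TGF-beta signalling is known for keeping microglia in their homeostatic state, and in wounds it is known for driving fibroblast matrix production.

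The data come from 6 groups with 1 single-cell library each: intact spinal cord, cord collected 1, 3 and 7 days after crush, and crushed cord injected with MPSS (10 mg/ml in PBS) or with PBS alone. The injection was made 3 days after injury, at 5 sites with 1 µL each, and those animals were killed 2 weeks after injury. All groups share the label Rattus norvegicus, the genotype label SD, an age of 6 to 8 weeks, 5 animals per condition, no sorting of cell types, and a 5-mm piece of cord, with the crush at thoracic level 10. The labels list the crush for the intact library as well, and its title, which calls it intact, was followed. The titles call both injected libraries re-analyzed. The time-course tables use mouse-style gene symbols although the label says rat, so the species behind those 4 tables is not settled.

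The time-course libraries held 2757 (intact), 7360 (day 1), 9263 (day 3) and 7467 (day 7) cells, with a median of 3090 to 6648 UMIs per cell. After filtering, 2091 of 2339 cells were used in the MPSS library and 1377 of 1513 in the PBS library, with medians of 10417 and 10292 UMIs. Cells were placed in classes by marker genes that include none of the 10 genes, and each class is called X-like for that reason. Between 20 and 91 cell barcodes were shared by pairs of time-course libraries, and 4 by the MPSS and PBS libraries. Of the 12 macrophage/monocyte markers, 9 were measured in the injected libraries. In both of them macrophage/monocyte-like cells had a median of 3 of those 9 with a UMI, the least the gate allows. Microglia-like cells there had a median of 4 of 10 microglia markers with a UMI. Day 1 microglia-like cells had a median of 6 of the 10 microglia markers with a UMI, against 8 in intact microglia-like cells, and their next class was macrophage/monocyte, with a median of 3 of its markers. The macrophage/monocyte-like class differed in makeup between the time-course libraries. A UMI of its marker Arg1 was in 3 of 49 cells in the intact library and 1867 of 2362 at day 1. At days 3 and 7 it was in 1465 of 3103 and 30 of 597 cells. The part of that makeup in the differences of this class was not tested. Levels are given as CPM, the UMIs of a gene per 1000000 UMIs of all genes after the cells of 1 class and library were added up, with an exact Poisson 95% interval that covers counting error only. With 1 library per group there is no test between groups. A gene is called higher or lower where the ratio of CPM was at least 2 in either direction with at least 20 UMIs over both sums, and each count of such calls is read against the share of all genes called by the same rule.

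In outline, the genes divided by cell class. At day 1 Tgfbi and Inhba were highest in macrophage/monocyte-like cells. In the time course Tgfbr1 was highest in microglia-like cells, Tgfb2 in endothelial-like cells, and Tgfb3 and Ltbp1 in fibroblast-like and pericyte/smooth muscle-like cells. Tgfb1, Tgfbr2 and Smad7 were spread over several classes. After crush, Tgfbi was higher and Tgfbr1 lower in microglia-like cells at days 1 and 3. In the injected libraries, 1 of the 7 genes with enough UMIs in phagocytes was past 2-fold, where 3.2% of all genes were. That gene was Tgfb1, which was higher in the MPSS library. Its difference was inside the 2-fold limit with classes taken from clusters in place of marker scores, and after cells were thinned to fewer UMIs.

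**Figure D1:**
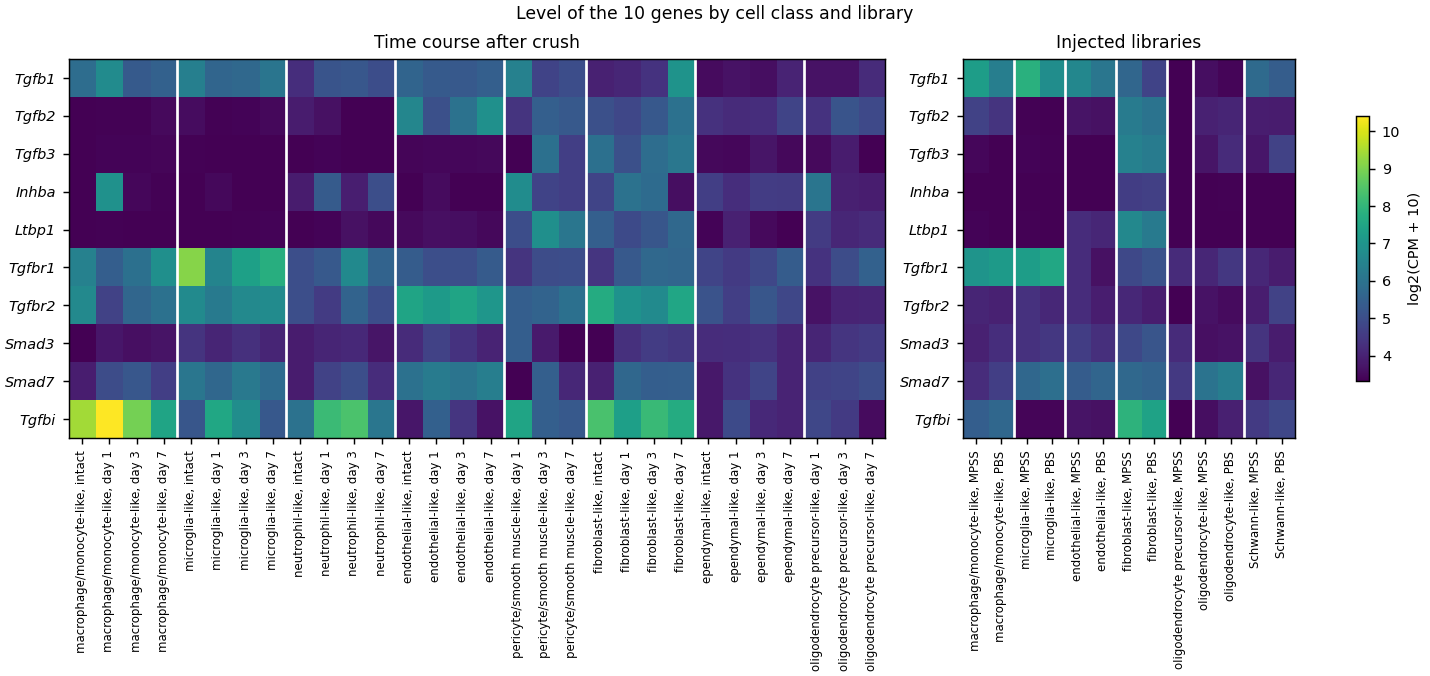
Level of each gene as log2(CPM + 10), 1 column per cell class and library with at least 30 cells, time course on the left and injected libraries on the right. Colours are to be compared along a row, within a set. The Tgfbi row is brightest in macrophage/monocyte-like cells at day 1 (1348 CPM) and the Tgfbr1 row in microglia-like cells of the intact cord (541.3 CPM).

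The promoter sequences of 4 of the genes are shown because those genes carry the class differences below: Inhba, Tgfbi and Tgfb1 for the day 1 macrophage/monocyte-like cells, and Tgfbr1 for the microglia-like cells. Each is the 250 bases before the annotated gene start, 5′ to 3′ on the gene's strand, from RefSeq for the rat build GRCr8, in which all 10 genes were matched by symbol. Capitals mark matches to the searched motifs TGANTCA (AP-1), CAGAC (SMAD), GGGCGG (Sp1) and GAGGAA (ETS/PU.1) on both strands and TATAAA on the gene strand.
Inhba, chr17:53804509-53804758, minus strand: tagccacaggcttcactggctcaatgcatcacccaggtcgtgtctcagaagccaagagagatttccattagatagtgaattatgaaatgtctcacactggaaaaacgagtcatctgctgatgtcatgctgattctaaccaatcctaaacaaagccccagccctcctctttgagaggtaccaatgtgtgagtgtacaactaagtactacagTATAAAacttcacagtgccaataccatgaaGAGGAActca
Tgfbi, chr17:7990114-7990363, minus strand: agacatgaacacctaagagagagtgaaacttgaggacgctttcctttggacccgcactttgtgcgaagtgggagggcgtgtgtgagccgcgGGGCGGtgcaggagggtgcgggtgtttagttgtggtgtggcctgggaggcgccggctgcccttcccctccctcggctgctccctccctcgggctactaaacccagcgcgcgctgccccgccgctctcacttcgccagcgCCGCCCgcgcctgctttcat
Tgfb1, chr1:90324062-90324311, plus strand: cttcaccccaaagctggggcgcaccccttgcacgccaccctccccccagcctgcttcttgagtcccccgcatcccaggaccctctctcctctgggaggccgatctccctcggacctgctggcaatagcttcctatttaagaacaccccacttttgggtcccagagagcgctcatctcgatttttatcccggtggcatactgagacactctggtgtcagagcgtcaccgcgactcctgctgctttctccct
Tgfbr1, chr5:66449148-66449397, plus strand: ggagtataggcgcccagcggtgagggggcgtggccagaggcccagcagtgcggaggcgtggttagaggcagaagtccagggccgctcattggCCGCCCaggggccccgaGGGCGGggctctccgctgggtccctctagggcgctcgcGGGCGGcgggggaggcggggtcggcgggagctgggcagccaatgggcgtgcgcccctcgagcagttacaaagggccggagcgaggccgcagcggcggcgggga

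The 4 promoters differ in base composition. GC content was 43.6% for Inhba, 60% for Tgfb1, 65.6% for Tgfbi and 75.6% for Tgfbr1, beside a median of 51.2% over 33469 promoters. Inhba holds TATAAA 40 bases and GAGGAA 10 bases before the start. Tgfbi holds GGGCGG 159 bases before the start and its reverse complement 20 bases before it. Tgfbr1 holds 3 GGGCGG matches, at 158, 141 and 103 bases, the farthest of them on the opposite strand, and Tgfb1 holds none of the searched motifs. No match overlaps another. Among all promoters of that length, 8.06% hold TATAAA, 30.5% GGGCGG, 23.3% GAGGAA, 42.9% CAGAC and 6.34% TGANTCA. Of the 10 genes, 1 holds TATAAA, 5 GGGCGG, 3 GAGGAA, 1 CAGAC and 0 TGANTCA. These matches describe letters in a rat window and are not binding sites.

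Inhba, whose product dimerises to activin A, was found mainly in the day 1 library. In macrophage/monocyte-like cells it was at 0, 109.4, 0.954 and 0.319 CPM in the intact, day 1, day 3 and day 7 libraries. Those levels rest on 0, 1364, 28 and 1 UMIs in 49, 2362, 3103 and 597 cells. Day 1 stood apart from the other 3 libraries. In the intact sum a count of 0 allows up to 14.5 CPM (3 UMIs). Because that sum held no Inhba UMI, the difference is a lower bound against a floor of 3 UMIs in that sum: at least 7.57-fold higher at day 1 than in the small intact class, and at least 49.1-fold higher over all phagocytes (macrophage/monocyte-like, microglia-like and the cells between them), where the levels were 48.2 CPM at day 1 and 0 in the intact library.

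Microglia-like cells of the same day 1 library held Inhba at 1.14 CPM (18 UMIs in 1392 cells), so that the gene was 95.7-fold higher in macrophage/monocyte-like than in microglia-like cells (95% interval 60.3 to 162). T/NK-like and B/plasma-like cells of day 1 had no Inhba UMI, which allows up to 19.7 and 13.4 CPM. After each cell was thinned to 1000 UMIs, 8.13% of day 1 macrophage/monocyte-like cells held an Inhba UMI (192 of 2362), against 0.144% of microglia-like cells. Among the day 1 macrophage/monocyte-like cells, the thinned share was 9.43% of the 1867 cells with an Arg1 UMI (8.14 to 10.8%) and 3.23% of the 495 cells without one (1.86 to 5.196%). Those intervals do not overlap, but cells of 1 library are not replicates, and the split was chosen after its values were seen. The share without an Arg1 UMI rests on 16 cells. At day 3 the same shares were 2 of 1465 and 0 of 1638 cells, too few to compare. Arg1, which encodes arginase 1 and is known from alternatively activated macrophages, is itself 1 of the class markers. Tgfb1 showed no such split, with 9.32% of cells with an Arg1 UMI and 11.9% of cells without one.

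Inhba was also present outside the phagocytes. In neutrophil-like cells it stood at 4.45, 30.7, 5.05 and 22.8 CPM in the intact, day 1, day 3 and day 7 libraries, on 1, 61, 2 and 21 UMIs. Fibroblast-like cells held 17.2, 54.1, 45.5 and 2.02 CPM, with 3 and 1 UMIs in the intact and day 7 libraries, and 1 cell gave 39.3% of the day 1 count. Ependymal-like cells kept a low level in all 4 libraries, at 14.9, 8.90, 14.1 and 13.5 CPM, and their intervals overlap. At day 1 it was at 82.6 CPM in astrocyte-like cells and 57.5 CPM in oligodendrocyte precursor-like cells, and 31.5% of the astrocyte-like count came from 1 cell. All 9 Inhba UMIs of pericyte/smooth muscle-like cells at day 1 came from 1 cell. The day 1 astrocyte-like class depended on the gate, with 143 cells, of which 37 stayed under a stricter gate and 0 were so classed by clustering.

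The source of Inhba in each library followed these levels. Ependymal-like cells gave 28 of the 34 Inhba UMIs of the intact library. Macrophage/monocyte-like cells gave 65.6% of the 2080 UMIs at day 1, fibroblast-like cells 79 of the 164 at day 3, and neutrophil-like cells 21 of the 43 at day 7. In the injected libraries, fibroblast-like cells gave 32 of 39 UMIs in the MPSS library and 28 of 37 in the PBS library.

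Tgfb1, the TGF-beta ligand gene of immune cells and endothelium, showed a shift between the phagocyte classes at day 1. In microglia-like cells it was at 73.1, 39.4, 42.5 and 57.1 CPM in the intact, day 1, day 3 and day 7 libraries (206, 620, 1024 and 941 UMIs). The intact interval (63.4 to 83.8 CPM) lies above those of days 1, 3 and 7, and none of the 3 days reached a 2-fold difference, with ratios of 0.539, 0.582 and 0.781 to the intact library. Macrophage/monocyte-like cells held 48.2, 97.1, 30.5 and 36.4 CPM, on 10, 1210, 895 and 114 UMIs. The day 1 level was above those of days 3 and 7 and, by 2.01-fold (1.09 to 4.21), above that of the intact library, whose interval of 23.1 to 88.6 CPM is wide.

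Within the day 1 library, Tgfb1 was 2.47-fold higher in macrophage/monocyte-like than in microglia-like cells (2.24 to 2.72), and in the other 3 libraries it was not called, with ratios of 0.659 (intact), 0.718 (day 3) and 0.637 (day 7). In the day 1 library 20 dendritic-like cells held more, at 151.8 CPM (18 UMIs, 89.96 to 239.9), and 44.4% of that count came from 1 cell. Their interval and that of B/plasma-like cells, at 84.7 CPM (51.0 to 132.2), overlap the macrophage/monocyte-like one (91.7 to 102.7), so the order of the 3 classes is not settled. Endothelial-like cells varied little, at 38.6, 30.3, 29.2 and 34.0 CPM over the 4 libraries. Ependymal-like cells were low, with 1.60 to 6.22 CPM. The 115.3 CPM of day 7 fibroblast-like cells is 57 UMIs, of which 89.5% came from 1 cell.

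Tgfb2, found mainly in endothelial-like cells in the time course, was lower in those cells at day 1. Its level there was 85.9, 23.1, 53.4 and 106.6 CPM in the intact, day 1, day 3 and day 7 libraries, on 347, 172, 451 and 395 UMIs in 1147, 1247, 1450 and 1274 cells. None of the 4 Poisson intervals overlap, and those of the intact (77.1 to 95.5) and day 7 (96.3 to 117.6) libraries lie close together. Day 1 was 3.73-fold lower than intact (3.095 to 4.50). At days 3 and 7 the ratios to the intact library were 0.621 (0.539 to 0.717) and 1.24 (1.07 to 1.44), inside the 2-fold limits. Thinned to 1000 UMIs per cell, 2.33% of day 1 endothelial-like cells had a Tgfb2 UMI (1.56 to 3.32%), against 7.24% of intact ones (5.81 to 8.89%). The summed level of the 10 endothelial markers was 17780 CPM at day 1 and 21230 CPM in the intact library, and its part in the result was not tested. Endothelial-like cells gave 91.6, 63.5, 76.4 and 79.6% of all Tgfb2 UMIs in the 4 libraries.

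In the 2 kinds of phagocyte of the time course, Tgfb2 was at or under 1.77 CPM, except that the 0 UMIs of intact macrophage/monocyte-like cells allow up to 14.5 CPM. In the injected libraries it was found in macrophage/monocyte-like cells, at 16.4 CPM (75 UMIs) in the MPSS library and 11.0 CPM (36 UMIs) in the PBS library. Microglia-like cells of the same libraries held 1 and 0 UMIs. The macrophage/monocyte-like level was 72.8-fold the microglia-like one in the MPSS library (12.7 to 2915) and at least 10.7-fold in the PBS library. Fibroblast-like cells of the injected libraries held 66.9 CPM in the MPSS library and 55.0 CPM in the PBS library.

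Tgfb3 and Ltbp1 shared the stromal classes. Tgfb3, another TGF-beta ligand gene, was at 51.5, 23.2, 47.8 and 60.7 CPM in fibroblast-like cells of the intact, day 1, day 3 and day 7 libraries (9, 36, 83 and 30 UMIs). The day 1 level was 2.22-fold lower than the intact one, with an interval of 0.941 to 4.70 that includes no difference. The summed level of the 10 fibroblast markers in this class was 8968, 2957, 4060 and 9093 CPM in the same 4 libraries, and its part in the differences of fibroblast-like cells was not tested. Outside that class it reached 50.8 CPM in pericyte/smooth muscle-like cells at day 3, and it was at or under 1.08 CPM in endothelial-like and both phagocyte classes of the time course, except that the 0 UMIs of intact macrophage/monocyte-like cells allow up to 14.5 CPM. Fibroblast-like cells gave 47.4 to 57.7% of Tgfb3 UMIs in the 4 libraries while holding 1.62 to 3.07% of all UMIs.

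Ltbp1, whose product anchors latent TGF-beta in the matrix, was at 34.3, 19.95, 27.1 and 42.5 CPM in fibroblast-like cells in the same order, with overlapping intervals. Pericyte/smooth muscle-like cells held 22.0, 105.9 and 59.2 CPM at days 1, 3 and 7, on 2, 25 and 8 UMIs, and the intact library had too few such cells to show (15). In microglia-like cells it did not pass 0.546 CPM in any time-course library. In the injected libraries 91.3% of Ltbp1 UMIs in the MPSS library and 95.2% in the PBS library came from fibroblast-like cells.

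Tgfbr1, the type I receptor gene, was highest in microglia-like cells in the time course. Microglia-like cells held 541.3, 81.2, 152.9 and 207.2 CPM in the intact, day 1, day 3 and day 7 libraries, on 1526, 1278, 3683 and 3416 UMIs, and no interval of one library reached that of another. Compared with the intact library, the level was 6.67-fold lower at day 1 (6.19 to 7.19), 3.54-fold lower at day 3 (3.33 to 3.76) and 2.61-fold lower at day 7 (2.46 to 2.78). Thinned to 1000 UMIs per cell, 7.11, 15.5 and 19.7% of microglia-like cells held a Tgfbr1 UMI at days 1, 3 and 7, and 38.4% in the intact library. The summed level of the 10 microglia markers also differed, at 4252 CPM at day 1 and 18480 CPM in the intact library, and its part in the result was not tested.

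Macrophage/monocyte-like cells held less Tgfbr1, at 77.1, 33.5, 51.0 and 106.0 CPM in the intact, day 1, day 3 and day 7 libraries. The gene was 7.02-fold lower in them than in microglia-like cells of the intact library (4.31 to 12.3), 2.42-fold at day 1 (2.17 to 2.71) and 3.00-fold at day 3 (2.82 to 3.18). At day 7 the ratio was 0.511 and not called. Fibroblast-like cells held 11.4, 29.6, 42.1 and 40.4 CPM, of which the intact value is 2 UMIs. Neutrophil-like cells reached 93.4 CPM at day 3 (37 UMIs), against 22.3 CPM in the intact library (5 UMIs). Endothelial-like cells stayed between 22.4 and 31.5 CPM in the 4 libraries. In the injected libraries the phagocyte classes lay closer together and Tgfbr1 was not called between them. Microglia-like and macrophage/monocyte-like cells held 143.2 and 117.6 CPM in the MPSS library and 181.4 and 134.1 CPM in the PBS library.

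Tgfbr2, the type II receptor gene, was shared by endothelial-like, microglia-like and fibroblast-like cells. Endothelial-like cells held 165.2, 134.9, 167.7 and 122.8 CPM in the intact, day 1, day 3 and day 7 libraries, and fibroblast-like cells 194.5, 113.3, 93.9 and 171.9 CPM. The intervals of those 2 classes overlap in the intact library, where fibroblast-like cells rest on 34 UMIs (134.7 to 271.8 CPM). In microglia-like cells the level was 95.1, 64.9, 91.8 and 96.0 CPM, and the ratio of day 1 to the intact library was 0.683. Macrophage/monocyte-like cells were at 91.5, 16.5, 40.9 and 52.7 CPM, and their day 1 level was 5.54-fold lower than the intact one (3.27 to 8.87) and 3.93-fold lower than that of day 1 microglia-like cells (3.38 to 4.58). In the injected libraries Tgfbr2 was at 7.13 CPM (MPSS) and 4.95 CPM (PBS) in fibroblast-like cells and 8.14 CPM (MPSS) and 7.18 CPM (PBS) in phagocytes. Levels of the time course and of the injected libraries are not compared, since their gene tables differ.

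Smad3, which carries the signal to the nucleus, had few UMIs per class. Microglia-like cells held 11.0, 6.54, 9.63 and 6.73 CPM and endothelial-like cells 8.42, 16.5, 10.5 and 6.21 CPM in the intact, day 1, day 3 and day 7 libraries. The endothelial-like day 1 level was 1.96 times the intact one (1.33 to 2.95) and stayed under the 2-fold limit. Macrophage/monocyte-like cells had 0 UMIs in the intact library, which allows up to 14.5 CPM, and then 3.45, 2.15 and 2.87 CPM, and at day 3 the gene was 4.49-fold lower in them than in microglia-like cells (3.38 to 6.02).

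Smad7, the feedback inhibitor, was at 58.5, 41.3, 62.5 and 45.9 CPM in microglia-like cells and 53.0, 66.8, 56.2 and 72.3 CPM in endothelial-like cells of the intact, day 1, day 3 and day 7 libraries. None of these differed from the intact library by 2-fold. It was lower in macrophage/monocyte-like cells, at 4.82, 21.3, 28.1 and 15.0 CPM, of which the intact value is 1 UMI. That was 2.23-fold lower than in microglia-like cells at day 3 (2.05 to 2.43) and 3.06-fold lower at day 7 (2.28 to 4.203). Ependymal-like cells held 3.73, 10.7, 17.3 and 6.22 CPM, so that days 1 and 3 were 2.86-fold (1.20 to 7.86) and 4.62-fold (1.96 to 12.6) higher than the intact library, on 7 intact UMIs. Fibroblast-like cells held 5.72, 41.8, 33.4 and 34.4 CPM in the 4 libraries, with 1 UMI in the intact one. The 68 T/NK-like cells of day 1 held 190.6 CPM (29 UMIs, 127.6 to 273.7), and the nearest level, 95.9 CPM in 20 dendritic-like cells of day 3, has an overlapping interval (49.6 to 167.5).

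Tgfbi, the TGF-beta induced matrix gene, came mostly from macrophage/monocyte-like cells at days 1 and 3. In these cells it was at 674.5, 1348, 476.1 and 167.3 CPM in the intact, day 1, day 3 and day 7 libraries, on 140, 16808, 13968 and 524 UMIs, with no overlap of intervals. Day 1 was 2.00 times the intact level (1.69 to 2.38), just under the limit for a call, and day 7 was 4.03-fold lower than intact (3.32 to 4.87). The class gave 76.5% of all Tgfbi UMIs at day 1 and 73.8% at day 3.

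Microglia-like cells held far less, at 27.3, 176.2, 101.7 and 28.6 CPM. Days 1 and 3 were 6.45-fold (5.14 to 8.20) and 3.72-fold (2.97 to 4.74) higher than the intact library, and day 7 was level with it (ratio 1.05, 0.823 to 1.35). Tgfbi was higher in macrophage/monocyte-like than in microglia-like cells in all 4 libraries, by 24.7-fold (intact), 7.65-fold (day 1), 4.68-fold (day 3) and 5.84-fold (day 7). The summed level of the 12 macrophage/monocyte markers in microglia-like cells was 1147 CPM at day 1 and 944.6 CPM in the intact library, all 12 with a UMI in both, and 17410 CPM in day 1 macrophage/monocyte-like cells. Its part in the result was not tested.

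Other classes also held more Tgfbi at day 1. Neutrophil-like cells were at 53.5, 275.9, 330.7 and 58.6 CPM in the intact, day 1, day 3 and day 7 libraries. Endothelial-like cells stood at 3.47, 35.3, 11.4 and 2.70 CPM, so that day 1 was 10.2-fold higher than intact (5.95 to 18.9) and day 3 was 3.28-fold higher (1.86 to 6.22). Ependymal-like cells were 5.36-fold higher at day 1 than in the intact library (2.40 to 14.1), at 20.02 CPM and 3.73 CPM. In the same day 1 library, the T/NK-like and B/plasma-like cells held 1 and 3 Tgfbi UMIs, or 6.57 CPM (0.166 to 36.6) and 13.4 CPM (2.76 to 39.1). Those 2 wide intervals overlap the endothelial-like (31.1 to 39.8) and ependymal-like (14.6 to 26.8) ones at day 1 and lie below the microglia-like and neutrophil-like ones. The part of free RNA in these levels was not tested. The summed macrophage/monocyte marker level in endothelial-like cells was 288.1 CPM at day 1 (12 of 12 markers with a UMI) and 170.1 CPM in the intact library (11 of 12, Msr1 at 0). In ependymal-like cells it was 157.9 CPM at day 1 (9 of 12, with Ms4a7, Mrc1 and Cd163 at 0) and 93.3 CPM in the intact library (6 of 12), and in neutrophil-like cells 11220 CPM and 20390 CPM. The part of these levels in the results was not tested. Fibroblast-like cells went the other way at day 1, at 320.3, 150.6, 269.1 and 194.1 CPM in the 4 libraries, with day 1 2.13-fold lower than intact (1.56 to 2.86).

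**Figure D2:**
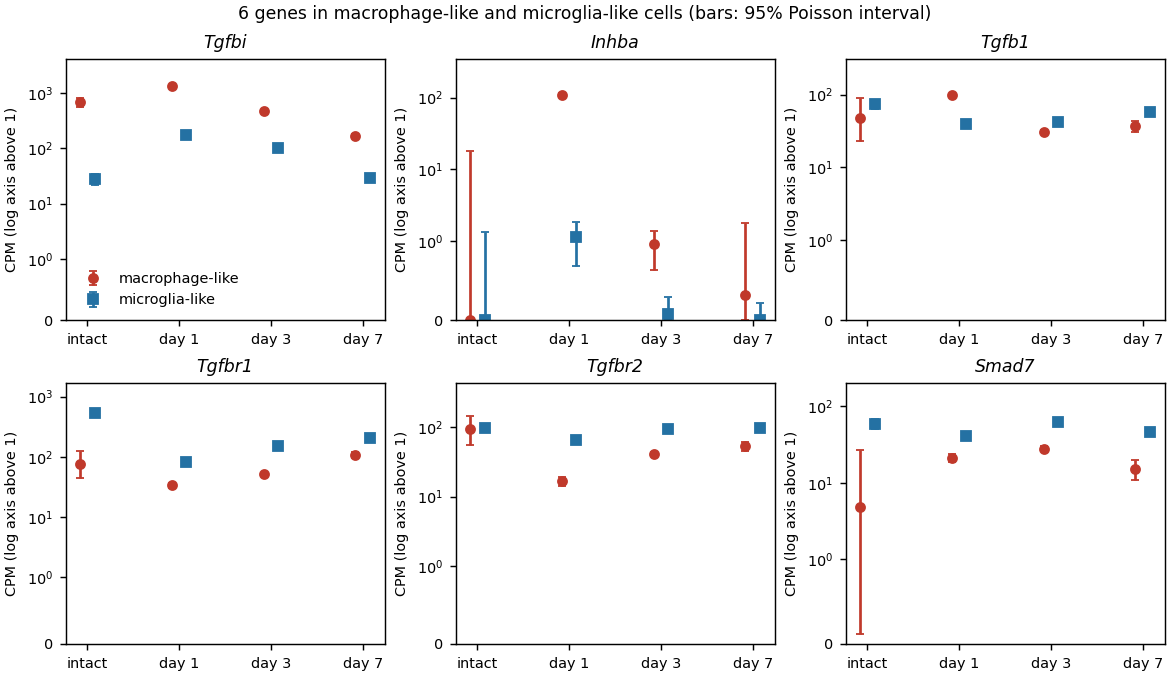
CPM of 6 of the genes in macrophage-like (circles) and microglia-like (squares) cells of the 4 time-course libraries, on an axis that is linear up to 1 CPM and logarithmic above it, with exact Poisson 95% intervals as bars. Inhba reaches 109.4 CPM in macrophage-like cells at day 1, and the Tgfbr1 and Smad7 values of microglia-like cells lie above those of macrophage-like cells in all 4 libraries.

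The genes past 2-fold were then counted per class. Over all phagocytes, 5 of the 7 genes with enough UMIs were called at day 1, against 39.2% of all genes. Those were Inhba and Tgfbi (higher) and Tgfbr1, Tgfbr2 and Smad3 (lower). At day 3, 4 of 9 were called, where 39% of all genes were, with Tgfbi higher and Tgfb1, Tgfb2 and Tgfbr1 lower. The Tgfb2 call rests on 19 UMIs at day 3 (0.341 CPM) and 5 in the intact library (1.64 CPM). At day 7, 1 of 7 was called, where 34% of all genes were. Phagocytes of the 3 days differ in makeup, with 2362 macrophage/monocyte-like cells of 3817 phagocytes at day 1 and 49 of 857 in the intact library. In microglia-like cells alone the counts were 2 of 6 (38.8% of all genes), 2 of 6 (32.3%) and 1 of 7 (33.4%) at days 1, 3 and 7. In macrophage/monocyte-like cells they were 5 of 7 (30.1%), 2 of 7 (32.1%) and 2 of 5 (28.9%). The 5 at day 1 were Inhba, Tgfb1 and Smad7, higher, and Tgfbr1 and Tgfbr2, lower. The count of 5 of 7 is above its background share, and the counts of microglia-like cells are close to or below theirs. The intact macrophage/monocyte-like sum held 0 Inhba, 1 Smad7 and 10 Tgfb1 UMIs in 49 cells. The higher calls of that class at day 1 therefore rest mainly on day 1 UMIs. The Smad7 interval (0.785 to 174.9) includes 1, and Tgfb1 was just past 2-fold. The members were chosen with earlier results known, so the count is not read as an excess over background.

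In endothelial-like cells, 2 of 8 genes were called at day 1 (24.8% of all genes), 1 of 8 at day 3 (15.6%) and 0 of 7 at day 7 (9.74%). Tgfb2 and Tgfbi were the 2 at day 1, and Tgfbi the 1 at day 3. Fibroblast-like cells, of which the intact library held 36, had 5 of 8 genes called at day 1 (31.6%), 4 of 9 at day 3 (31.3%) and 3 of 7 at day 7 (21.5%). Inhba, Tgfbr1 and Smad7 were the higher genes of that class at days 1 and 3, with Tgfb3 and Tgfbi lower at day 1 and Tgfbr2 lower at day 3. Tgfb1, Tgfb2 and Tgfbr1 were higher at day 7. The intact sum held 3 Inhba, 2 Tgfbr1, 1 Smad7 and 4 Tgfb2 UMIs. The intervals of Inhba at day 3 (0.875 to 13.1), Tgfb3 at day 1 (0.213 to 1.06) and Tgfb2 at day 7 (0.797 to 9.06) include 1, as do those of Tgfbr1. The Tgfb1 call at day 7 rests on the 1 cell with 89.5% of its UMIs, and without that cell the gene has under 20 UMIs over both sums. Neutrophil-like cells, 46 in the intact library, had 4 of 6 at day 1 (32.2%), 2 of 3 at day 3 (40.5%) and 2 of 5 at day 7 (21.1%), and ependymal-like cells 2 of 7 at day 1 (27.7%), 1 of 6 at day 3 (16%) and 0 of 5 at day 7 (13.1%). The neutrophil-like genes were Inhba, Tgfb1, Smad7 and Tgfbi at day 1, Tgfbr1 and Tgfbi at day 3, and Inhba and Tgfb1 at day 7, all higher. Their intact sum held 1 Inhba, 2 Tgfb1, 1 Smad7 and 5 Tgfbr1 UMIs, so these calls rest mainly on UMIs of the injured libraries. The Inhba interval at day 7 (0.823 to 211.6) includes 1. The ependymal-like genes were Tgfbi at day 1 and Smad7 at days 1 and 3, also higher. The 3 day comparisons share the intact library.

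Between macrophage/monocyte-like and microglia-like cells of one library, 3 of 6 genes were called in the intact library (29.8% of all genes), 5 of 7 at day 1 (35.3%), 7 of 8 at day 3 (25.3%) and 3 of 7 at day 7 (19.4%). The 5 at day 1 were Inhba, Tgfbi and Tgfb1, higher in macrophage/monocyte-like cells, and Tgfbr1 and Tgfbr2, lower. The 7 at day 3 were Tgfbi, Inhba and Tgfb3, higher in macrophage/monocyte-like cells, and Tgfbr1, Tgfbr2, Smad3 and Smad7, lower. Tgfb3 rests there on 17 and 3 UMIs, and its log2 ratio of 2.22 was -0.09 after thinning to 1000 UMIs per cell. In the injected libraries 3 of 7 were called in the MPSS library (18%) and 3 of 7 in the PBS library (18.7%). Tgfbi and Tgfb2 were the higher ones and Smad7 the lower one in each.

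A change of scaling moves every ratio of a comparison by one amount. Scaling by the trimmed mean of M values (TMM) added 0.43, 0.64 and 0.68 to the log2 ratios of phagocytes at days 1, 3 and 7, 0.38, 0.50 and 0.66 to those of microglia-like cells, and 0.10, 0.20 and 0.17 to those of endothelial-like cells. Under it the lower Tgfbr1 of microglia-like cells stayed past 2-fold at days 1 and 3 and not at day 7, when its log2 ratio was -0.72. The lower Tgfbr2 of day 1 phagocytes was not past 2-fold either, at -0.68. The same shifts took the lower Smad3 of day 1 phagocytes inside the limit, from a log2 ratio of -1.02. They did so for the lower Tgfb1 of day 3 phagocytes (35.7 CPM, against 72.0 CPM intact) and the lower Tgfbr1 of day 7 phagocytes.

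**Figure D3:**
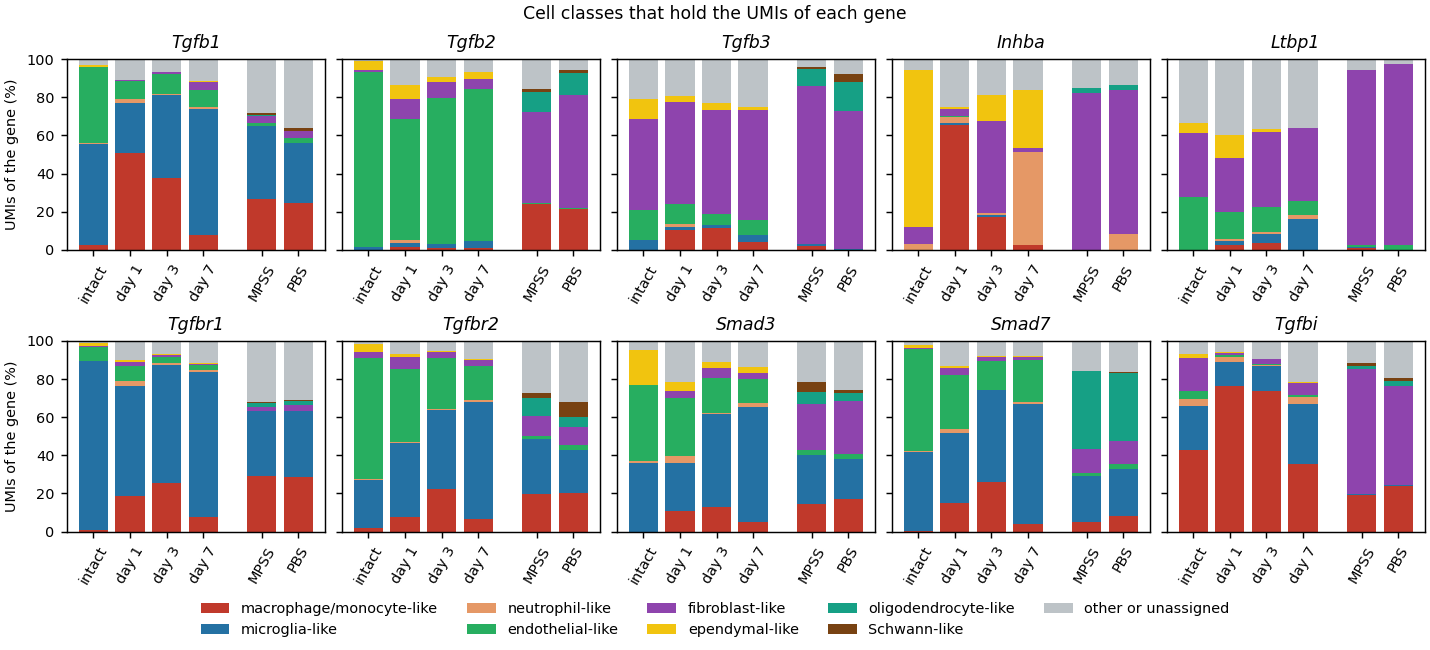
Percentage of the UMIs of each gene that came from each cell class, 1 bar per library. The grey part holds other classes, unassigned cells and phagocytes between the microglia-like and macrophage/monocyte-like gates. Endothelial-like cells gave 91.6% of Tgfb2 UMIs in the intact library and macrophage/monocyte-like cells 65.6% of Inhba UMIs at day 1.

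The MPSS and PBS libraries set crushed cord injected with MPSS beside crushed cord injected with PBS alone, 2 weeks after injury. Tgfb1 was higher in the MPSS library in phagocytes, at 180.2 CPM (1748 UMIs in 641 cells), against 87.6 CPM in the PBS library (586 UMIs in 444 cells), a 2.06-fold difference (1.87 to 2.26). It was the 1 called gene of 7 tested in phagocytes, where 3.2% of all genes were called. With classes taken from clusters in place of marker scores the log2 ratio was 0.90, and after thinning to 1000 UMIs per cell it was 0.92, both inside the 2-fold limit. Microglia-like cells held 214.8 CPM in the MPSS library and 101.7 CPM in the PBS library, 2.11-fold (1.85 to 2.42), the 1 call of 5 (3.7% of all genes). Macrophage/monocyte-like cells held 143.6 CPM (MPSS) and 71.7 CPM (PBS), 2.00-fold (1.72 to 2.34), the 1 call of 7 (4.19%). The summed level of the 9 measured macrophage/monocyte markers was 1526 CPM in MPSS and 2122 CPM in PBS microglia-like cells, with Cd163, F13a1 and Ms4a4c at 0 in both, and 14580 CPM and 19640 CPM in macrophage/monocyte-like cells of the MPSS and PBS libraries. Its part in the Tgfb1 difference was not tested.

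Fibroblast-like cells held 41.0 CPM of Tgfb1 in the MPSS library (92 UMIs) and 17.1 CPM in the PBS library (31 UMIs), 2.41-fold higher (1.59 to 3.74), the 1 call of 10 genes tested (5.73% of all genes). In 3 smaller classes the MPSS value was above the PBS value with overlapping intervals: 129.4 and 75.4 CPM in T/NK-like, 86.2 and 58.8 CPM in endothelial-like and 44.2 and 32.6 CPM in Schwann-like cells. Unassigned cells, 23.3% of the MPSS library and 23.2% of the PBS library, held 122.9 CPM and 88.4 CPM. Thinned to 1000 UMIs per cell, 15.8% of MPSS phagocytes (13.02 to 18.8%) and 9.71% of PBS phagocytes (7.11 to 12.9%) had a Tgfb1 UMI. With 1 library per group, a difference between the libraries and a difference between the treatments cannot be told apart.

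In phagocytes the other genes stayed inside the 2-fold limit. Tgfbr1 was at 131.2 CPM in MPSS phagocytes and 157.6 CPM in PBS phagocytes (ratio 0.833, 0.767 to 0.904), and Smad7 at 25.1 and 31.2 CPM (0.802, 0.664 to 0.969). Tgfbi was at 16.2 CPM in MPSS phagocytes and 21.2 CPM in PBS phagocytes (0.762, 0.604 to 0.963). In fibroblast-like cells Tgfbi was at 231.4 CPM (MPSS) and 160.1 CPM (PBS), 1.45 times as high with an interval that ends at 1.67 and does not reach 1, and Ltbp1 at 88.7 CPM (MPSS) and 66.0 CPM (PBS), 1.34 times (1.07 to 1.70). Tgfb3 in that class was at 75.8 and 67.7 CPM, and Inhba at 14.3 and 15.4 CPM, in the MPSS and PBS libraries. No phagocyte of either library held an Inhba UMI, which allows up to 0.309 CPM in the MPSS library and 0.449 CPM in the PBS library. In oligodendrocyte-like cells 2 of 7 genes were called lower in the MPSS library (3.93% of all genes): Tgfb3, at 3.18 CPM (MPSS) and 8.46 CPM (PBS), and Tgfbi, at 1.94 and 5.53 CPM, on 18 and 26 and on 11 and 17 UMIs.

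**Figure D4:**
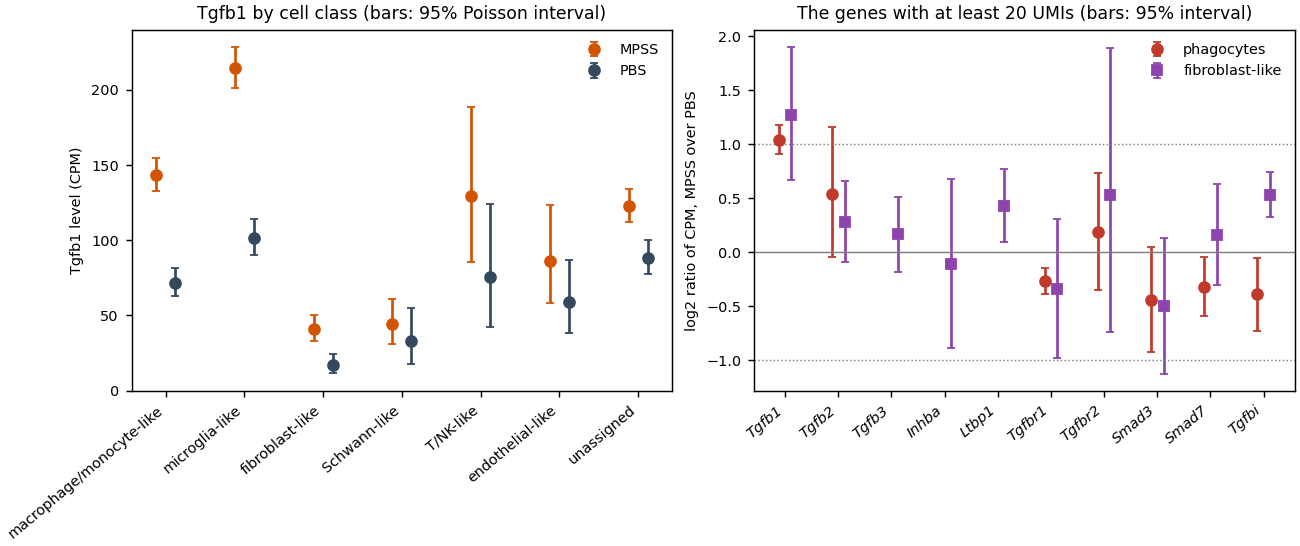
Left, Tgfb1 CPM by cell class in the MPSS and PBS libraries with exact Poisson 95% intervals. Right, log2 ratio of CPM, MPSS over PBS, in phagocytes and fibroblast-like cells for the genes with at least 20 UMIs over both sums, with 95% intervals and dotted lines at 2-fold. Tgfb1 is the gene whose points lie above the upper line, at 2.06-fold and 2.41-fold.

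Other genes of the pathway were followed in 6 lists. Between day 1 and intact microglia-like cells, 16.5% of all genes were called higher and 22.3% lower. Of the latency and activation genes 2 of 9 were higher and 1 lower, with a median log2 ratio of 0.393 beside -0.134 over all genes. Thbs1, whose product thrombospondin can release active TGF-beta, was at 58.2 CPM at day 1 and 8.16 CPM in the intact library, 7.13-fold higher (4.72 to 11.3), and Ltbp4, another latent binding protein, was 8.12-fold lower (4.58 to 14.7). Of the receptors and co-receptors 0 of 9 were higher and 3 lower (median -0.732), among them Eng, the co-receptor endoglin, at 22.6 CPM at day 1 and 73.8 CPM in the intact library, and Bmpr2, a BMP type II receptor. Of the SMADs and their regulators 0 of 13 were higher and 3 lower (median -0.615): Skil, Ski and Pmepa1, which all restrain SMAD signalling. Skil was at 103.6 CPM at day 1 and 295.8 CPM in the intact library.

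Of the transcriptional targets, 4 of 15 were higher and 2 lower in day 1 microglia-like cells, with a median of 0.303. Fn1, encoding fibronectin, was at 332 CPM at day 1 and 19.5 CPM in the intact library, 17.0-fold higher (13.1 to 22.6), and Id2, a target of the BMP branch, was 2.72-fold higher (2.53 to 2.92). Timp1, a protease inhibitor, was at least 16.2-fold higher, and Postn, a matrix gene, was 23.5-fold higher (10.0 to 72.6), at 41.7 CPM at day 1 and 1.77 CPM in the intact library. The summed level of the 10 fibroblast markers in the same sums was 24.6 CPM at day 1 and 119.9 CPM in the intact library, most of it Serpinf1. The part of that sum, and of free RNA from other classes, in these target levels was not tested. Gdf15, a divergent family ligand induced by stress, was the 1 other ligand with enough UMIs, at 32.8 CPM at day 1 and 8.87 CPM in the intact library. Of the extracellular antagonists 1 of 3 was higher and 1 lower, the lower one being Dcn, which encodes decorin.

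At day 3 the backgrounds for microglia-like cells were 10.3% higher and 22% lower, and at day 7 they were 6.84% and 26.6%. The receptor list stayed without a higher call, with 4 of 11 lower at day 3 and 4 of 10 at day 7, including Eng at both days and the endothelial type I receptor gene Acvrl1, which was 2.43-fold lower at day 3 and 2.72-fold lower at day 7. Of the SMAD list 2 of 13 were lower at each of those days. Of the targets 9 of 16 were higher and 1 lower at day 3, and 7 of 15 higher and 2 lower at day 7, with medians of 1.12 and 0.881 beside -0.347 and -0.559 over all genes. Fn1 was 15.2-fold higher at day 3 and 6.29-fold at day 7, and Ccn1, a secreted matricellular protein gene, was 6.55-fold and 5.31-fold lower. Of latency and activation genes 3 of 10 were higher at both days, among them Itgb5, an integrin subunit, at 682.7 CPM at day 3 and 595.2 CPM at day 7, against 231.3 CPM in the intact library, with 1 and 2 lower. Gdf15 stood at 112.4 CPM at day 3 and 106.7 CPM at day 7, and the ligand list had 3 of 3 and 2 of 2 genes higher. The antagonist list had 1 of 4 higher and 1 lower at each day.

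In endothelial-like cells, 13.6% of all genes were called higher and 11.2% lower at day 1, 8.41% and 7.2% at day 3, and 4.43% and 5.32% at day 7. Of the latency and activation genes, 6 of 10 were higher and 1 lower at day 1, with a median log2 ratio of 1.64 beside -0.0302 over all genes. Lrrc32, which encodes GARP, a cell-surface anchor of latent TGF-beta, was at 165.6 CPM at day 1 and 4.95 CPM in the intact library, 33.4-fold higher (21.6 to 54.9). Thbs1 was at 83.1 CPM at day 1 and 7.92 CPM in the intact library, and Itgb3, an integrin subunit, at 15.0 CPM and 0.248 CPM in the same 2 libraries, the intact value being 1 UMI. Ltbp4 was 2.96-fold lower, at 112.6 CPM at day 1 and 333.1 CPM in the intact library. At day 3 Lrrc32 was at 17.4 CPM, 3.51-fold higher than intact, and 5 of 10 latency genes were higher, while at day 7 1 of 8 was.

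Among the other endothelial-like lists, the ligand gene Inhbb, another activin subunit gene, was at 26.1 CPM at day 1 with no UMI in the intact library, at least 35.2-fold higher, and 2 of 3 ligands were called higher at day 1, 4 of 4 at day 3 and 1 of 1 at day 7. Receptors gave 1 of 9, 1 of 8 and 1 of 8 higher and none lower. Of the SMAD list 3 of 13 were higher at day 1: Smad6, the inhibitory SMAD of the BMP branch, at 44.4 CPM at day 1 and 11.9 CPM in the intact library, and the signal transducers Smad1 and Smad2, by 2.02-fold (1.73 to 2.35) and 2.21-fold (1.65 to 3.00). That list had 0 of 13 at day 3 and 1 of 13, Smad6, at day 7. Antagonists were higher in 4 of 5, 2 of 4 and 1 of 3 genes at days 1, 3 and 7, with Dcn, Bgn and Fstl1 among the 4. Dcn was at 47.6 CPM at day 1 and 12.4 CPM in the intact library, and it was also higher in neutrophil-like cells, at 111.1 CPM at day 1 with no UMI in the intact library. In endothelial-like cells the 10 fibroblast markers summed to 30.4 CPM at day 1 (9 of 10 with a UMI, Dpt at 0) and 17.8 CPM in the intact library (10 of 10), and its part in the antagonist and target counts was not tested. Targets were higher in 9 of 16, 9 of 15 and 5 of 15 genes, and 2 were lower at day 1, Junb and Klf10. Timp1 was at 191.8 CPM at day 1 and 1.24 CPM in the intact library. In the same cells Tgfbr1 and Tgfbr2 stayed inside the 2-fold limits at all 3 days, with ratios of 0.712 to 0.995 and 0.743 to 1.02.

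Between the injected libraries few list genes were called. In phagocytes, 1.41% of all genes were called higher and 1.79% lower in the MPSS library, and none of the latency (0 of 5), receptor (0 of 6), SMAD (0 of 10) or antagonist (0 of 2) genes. Bmp2, a BMP ligand gene, was at 5.67 CPM in the MPSS library and 2.39 CPM in the PBS library, 2.37-fold higher (1.34 to 4.43), the 1 call of 3 ligands. Of 11 targets 2 were lower, Fn1, at 11.9 CPM (MPSS) and 27.1 CPM (PBS), and Klf10, at 5.15 CPM (MPSS) and 10.3 CPM (PBS), and 0 of the 11 were higher. In fibroblast-like cells the backgrounds were 2.02% higher and 3.71% lower. There, 2 of 15 targets were higher, among them Postn at 145.4 CPM (MPSS) and 47.3 CPM (PBS), 3.07-fold (2.42 to 3.94). Acta2, encoding smooth muscle actin, was lower, at 1.78 CPM (MPSS) and 28.1 CPM (PBS). The MPSS value is near the 1.34 CPM that 3 UMIs give in that sum. The other lists in that class had 0 of 9 latency, 0 of 5 ligand and 0 of 10 SMAD genes called, 1 of 10 receptors lower and 1 of 7 antagonists higher.

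Genes with the most similar pattern were found over 30 sums of the time course (class and library, at least 50 cells each) among 10850 genes, as Pearson's r of log2(CPM + 10). The sums of one library share its depth, and r is a description without a test. For Tgfbr1 they included Pla2g15 (0.910) and Hps4 (0.904). Tgfb2 was closest to Ccser2 (0.958), Stard13 (0.930) and Sptbn1 (0.927), and Tgfbi to Emilin2 (0.895), Cstb (0.877) and Slc7a11 (0.870). The closest genes to Tgfb1 were Lgals9 (0.866), Ly96 (0.831) and Mbnl1 (0.831), those to Tgfbr2 Lrrk1 (0.864), Fcgrt (0.855) and Tmem140 (0.849), and those to Smad7 Elf1 (0.852), H2-T22 (0.826) and Psme1 (0.818). Inhba had no gene as close, with Sphk1 (0.779), Fosl1 (0.669) and Fam162a (0.662), and neither had Smad3, with Tnpo2 (0.759), Lrch3 (0.722) and Tmem209 (0.716). Tgfb3 and Ltbp1 had under 500 UMIs in the time course and were not compared. Tgfb1 and its receptor genes had r of 0.517 (Tgfbr1) and 0.564 (Tgfbr2) over the same sums.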

How the data were processed

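Single cells of rat-labelled spinal cord were captured on 10x Genomics droplets after digestion with collagenase and trypsin, in 6 libraries. The deposited files hold counts of UMIs per gene and cell. The submitters' processing notes name Cell Ranger 3.0.2, the matrix headers for MPSS and PBS record 3.1.0, and the genome build is not given in the sources used here. The labels name a 3′ kit of version 3 beside gel beads of version 2. In the intact and day 1 tables, 77 gene names that the other time-course tables lack were left out. Depth was 9663877, 50640634, 72515788 and 30470794 UMIs for the intact, day 1, day 3 and day 7 libraries, 23988263 for MPSS and 16081082 for PBS.

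Cells needed at least 200 genes, 500 UMIs and at most 20% mitochondrial UMIs. Each cell was scored for 17 marker lists as the mean of log-scaled counts divided by the 99th percentile of each marker, and was placed in a class where at least 3 markers had a UMI and the score was at least 1.25 times the next one. Possible doublets (54, 567, 252 and 290 cells in the time course, 58 in MPSS, 56 in PBS) were kept, and left out in an alternative. Counts were summed by class and library. Poisson, binomial ratio and Clopper-Pearson intervals at 95% cover counting error only, and comparisons needed 30 cells on each side. A sum at 0 was set to 3 UMIs for a bound. The named genes are the 10 members, up to 4 genes of each pathway list with the largest difference of log2(CPM + 10) and at least 50 UMIs, and the 3 most similar genes of each member with at least 500 UMIs. Arg1, which divides the macrophage/monocyte-like cells for Inhba, lies outside that rule and was chosen after its values were seen. The values of 2 genes that the rule names are not reported here. The members and lists were chosen with earlier results of these data known.

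Alternatives were TMM (edgeR 4.0.16 in R 4.3.3) and median-of-ratios scaling, totals without mitochondrial and ribosomal protein genes, at least 10 UMIs, no minimum count, means over cells, thinning to 1000 UMIs, a stricter gate with a lead of 2, Leiden clusters (scanpy 1.11.5, leidenalg 0.10.2, 2000 variable genes, 30 components, 20 neighbours, resolution 1), no possible doublets, and no highest cell. The steps ran in Python 3.11.15 with numpy 2.4.6, scipy 1.17.1, pandas 2.3.3 and scikit-learn 1.9.0. Only the fold rule and the ratio intervals were tested on simulated data, with Poisson counts of known folds.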

Additional observations from a re-analysis of the deposited data

Results flagged for a closer look

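Tgfbi and Tgfbr1 differed from the intact library in opposite directions in different cell classes, and the difference between the classes was not tested, since each group has 1 library. At day 1 the ratio of Tgfbi to the intact library was 6.45 in microglia-like, 5.163 in neutrophil-like, 10.17 in endothelial-like and 5.364 in ependymal-like cells, all higher, and 0.4701 in fibroblast-like cells, which is lower.

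Tgfbr1 at day 1 had a ratio of 0.15 in microglia-like and 0.435 in macrophage/monocyte-like cells, both lower, and 2.588 in fibroblast-like cells, which is higher. At day 3 its ratio was 0.2825 in microglia-like cells, 4.194 in neutrophil-like cells and 3.677 in fibroblast-like cells. At day 7 it was 0.3829 in microglia-like and 3.535 in fibroblast-like cells. The fibroblast-like ratios rest on 2 Tgfbr1 UMIs in 36 intact cells, and their intervals include 1.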

How the results depend on the processing

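Each group has 1 library, so no spread between animals is known, and leaving out a replicate could not be done. No paired analysis was possible because the groups have 1 library each. Of 121 recomputed counts of called members, 109 stayed within 1.5 times the reported count. In phagocytes at day 1, 3 genes in place of 5 were called under TMM scaling and 3 under median-of-ratios scaling. In phagocytes at day 3, 2 in place of 4 were called after thinning, and in endothelial-like cells at day 3, 0 in place of 1. In phagocytes at day 7, where 1 gene was called, the count was 0 under TMM and under median-of-ratios scaling, 2 without a minimum count and 2 after thinning. Between the MPSS and PBS phagocytes, 3 in place of 1 were called without a minimum count and 0 with cluster classes. Between macrophage/monocyte-like and microglia-like cells at day 7, 5 in place of 3 were called without a minimum count and 5 under the stricter gate. The log2 ratio of Tgfb3 between those classes at day 3 was -0.09 after thinning, against 2.22 as reported, and was the 1 value of 504 that turned its direction. Of the 504, 408 stayed the same and 95 moved, and 471 were still at least 2-fold. Altering only the minimum count cannot change a ratio, so any values from those alternatives say nothing on stability. The cause was not tested in any of these cases. The class with the highest level also moved in places: Inhba at day 1 was highest in astrocyte-like cells under the stricter gate and in oligodendrocyte precursor-like cells with cluster classes, and Tgfbi at day 7 in macrophage/monocyte-like cells under 4 alternatives.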
